A study of Mus musculus with 6 samples.

Results

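The 10 transcripts described here encode surface proteins of the immunoglobulin superfamily that raise or restrain the activation of T cells: Cd28, Icos, Ctla4, Pdcd1, Btla, Lag3, Tigit, Havcr2, Cd200 and Cd200r1. They were taken by gene symbol, with the probe set of the highest mean signal for each gene. All 10 had a probe set under a single symbol, 1 each, among the 19938 genes tested. RNA came from CD4 single-positive thymocytes, T cells maturing in the thymus that carry the co-receptor CD4 without CD8, and was measured on 3 wildtype and 3 Bach2 knockout arrays. BACH2 is a basic leucine zipper protein that represses its target genes.

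Both groups were of the C57BL/6 background and from males, and both had grown in the same kind of host. Lethally irradiated Rag1 knockout males, aged 8 weeks, were given equal parts of lineage-depleted marrow from Ly5.1+ wildtype and Ly5.1- Bach2 knockout males of that age, and the thymocytes were sorted 2 months later. Such hosts form neither T nor B cells, but have other cells and thymic stroma of their own. Ly5.1, an allele of Ptprc, went together with genotype, so that genes carried along with either locus cannot be told apart from the loss of Bach2. The design text gives the samples as separate mice and biological replicates. The sources used here do not say which part of Bach2 was deleted.

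As background, a T cell reads its antigen through the T cell receptor, and these proteins set how strongly it answers. CD28 and ICOS add a second, stimulating signal, mainly through phosphoinositide 3-kinase. CTLA-4 competes with CD28 for the same ligands, CD80 and CD86, and takes them off the surface of antigen-presenting cells. PD-1 (Pdcd1), BTLA and TIGIT carry tyrosine motifs in their tails that recruit phosphatases, LAG-3 binds MHC class II, and TIM-3 (Havcr2) marks chronically stimulated cells. CD200 is a membrane ligand that delivers an inhibitory signal to cells carrying its receptor, CD200R1. In the thymus, CTLA-4, TIGIT, ICOS and PD-1 are known from regulatory T cells and from cells that have met a strong self-antigen signal.

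The array medians ran from 4.93 to 4.97 on the log2 scale, and Pearson's r across all 35556 probe sets was 0.981 to 0.988 within wildtype, 0.990 to 0.991 within knockout and 0.984 to 0.989 between the groups. Wildtype SD exceeded knockout SD for 65.0% of genes and for 9 of the 10 receptors. Bach2 fell from a wildtype mean of 8.05 ± 0.16 to a knockout mean of 6.48 ± 0.06 (SD, n = 3 each; limma, adjusted p = 0.000156), and Ptprc at 10.95 ± 0.07 and 10.98 ± 0.04. The labelled cell type carried its defining markers: Cd4 lay between 10.33 and 10.43 on every array and Cd3e between 11.39 and 11.48. None of the 8 markers of this cell type passed the test (median difference -0.03), with Gata3 at -0.26 and Ccr7 at -0.15 having the smallest p. Transcripts of the CD8 chains were also bright, with Cd8a between 7.67 and 8.90 and Cd8b1 between 8.77 and 9.55. Both were highest on knockout replicate 3, and neither difference passed.

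Of the 10 receptors, 1 rose in the knockout, Cd200r1, and 0 fell by limma after adjustment over all genes, at a threshold of 0.05 on adjusted p. Over all genes tested, 0.351% rose and 0.216% fell. At an unadjusted p under 0.05, 2 receptors were higher (Cd28 and Cd200r1) and 4 lower (Ctla4, Pdcd1, Tigit and Cd200), where 3.04% and 3.87% of all genes were. The 3 knockout values all lay above the 3 wildtype values for Cd28, Icos and Cd200r1, which 5.13% of all genes did. They all lay below them for Ctla4, Pdcd1 and Cd200, which 6.57% of all genes did. The receptors' median difference was -0.20 on the log2 scale, with 4 above 0 and 6 below, against -0.01 over all genes. The receptors were put together with results of these data known, so these counts describe them and give no independent support. In sorted bulk RNA, fewer cells of a type and less RNA per cell cannot be told apart.

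**Figure D1:**
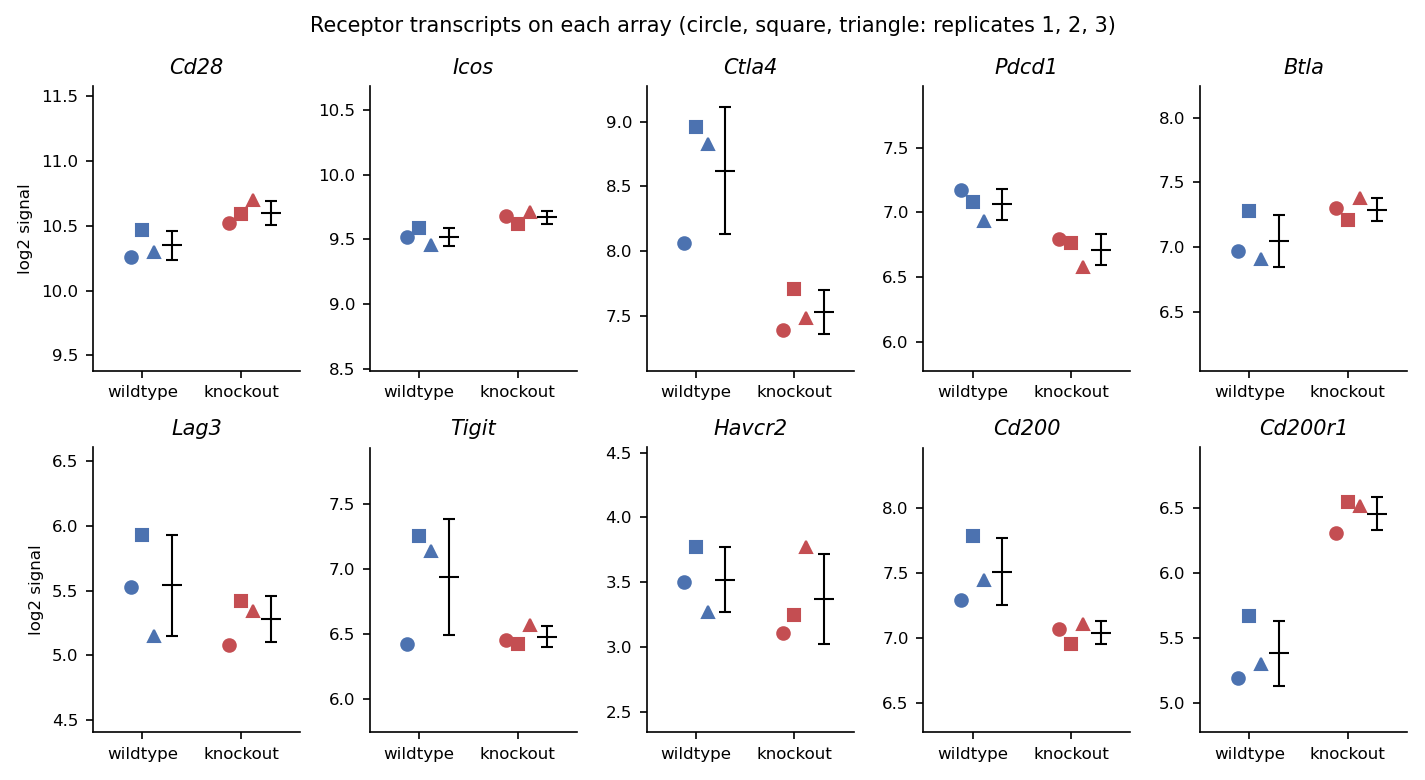
Log2 signal (y axis) of each of the 10 receptor transcripts on the 6 arrays, wildtype in blue and knockout in red, with the group mean and SD (n = 3) as black bars; every panel spans the same height of log2 units. Cd200r1 shows knockout values of 6.31 to 6.55 above wildtype values of 5.19 to 5.67, and in the Ctla4 and Tigit panels wildtype replicate 1 (circle) lies below the other wildtype arrays.

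The costimulatory pair gave a high signal in both genotypes and was slightly higher in the knockout, without passing the test. Cd28, the receptor for CD80 and CD86, was at 10.26, 10.47 and 10.30 in wildtype replicates 1 to 3 and at 10.52, 10.59 and 10.70 in the knockout, so that the groups did not overlap. The difference was 0.25 ± 0.10 on the log2 scale (limma standard error; 95% interval 0.03 to 0.48, unadjusted p = 0.0299, adjusted p = 0.615), or 1.19-fold. Icos, whose protein binds ICOS ligand and supports helper and regulatory T cells, had wildtype values of 9.52, 9.59 and 9.46 and knockout values of 9.68, 9.62 and 9.71. These groups did not overlap either, but were only 0.03 apart at their nearest values. The difference of 0.15 had a 95% interval of -0.05 to 0.35 (limma, adjusted p = 0.887).

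Ctla4, which encodes the inhibitory competitor of CD28, showed the largest difference of the 10 in either direction. It was at 8.06, 8.96 and 8.83 in wildtype replicates 1 to 3 and at 7.39, 7.71 and 7.48 in the knockout. All knockout values lay below all wildtype values, and wildtype replicate 1 was the wildtype array nearest to the knockout. The means of 8.62 ± 0.49 and 7.53 ± 0.17 (SD, n = 3 each) differed by -1.09 ± 0.21, 2.13-fold lower in the knockout, with a 95% interval of -1.55 to -0.63. Its adjusted p of 0.0568 by limma missed the threshold, and it stood at rank 121 by p, where 113 genes passed. The call turned on the setting: the adjusted p was 0.0433 after the array medians were subtracted, 0.0453 without dim genes and 0.0125 with the replicate number as a block. It was 0.418 over all probe sets and 0.644 without moderation, and without wildtype replicate 1 it was 0.00113, at a difference of -1.37. Leaving out any other array gave 0.117 to 0.266.

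Ctla4 lies directly between Cd28 and Icos in gene order on chromosome 1, so 3 neighbouring genes gave differences of 0.25, -1.09 and 0.15. Within each array, the log2 signal of Cd28 exceeded that of Ctla4 by 1.47 to 2.20 in wildtype and by 2.88 to 3.22 in knockout cells. The change of this gap was 1.35 and the gaps did not overlap (exact permutation test over the arrays, two-sided, p = 0.1, the smallest that 3 against 3 allows). The gap between Icos and Ctla4 changed by 1.24, again without overlap and with the same exact p = 0.1. For Cd28 and Icos all knockout values lay above all wildtype values, and for Ctla4 below. The outcome of both gap tests was thereby fixed, so they restate the separate values and add no support. The gaps mix the affinities of different probes, so only their change can be read. The 3 genes are 451 to 453 tested genes from Ptprc, whose allele marked the genotypes, and Pdcd1, on the same chromosome, is 190 tested genes from it.

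Tigit, an inhibitory receptor for the nectin-family protein PVR, followed the wildtype arrays in the same order. It was at 6.42, 7.26 and 7.14 in wildtype replicates 1 to 3 and at 6.45, 6.42 and 6.57 in the knockout. Wildtype replicate 1 sat among the knockout arrays, so the groups overlapped, while the other wildtype arrays stood well above them. The difference of -0.46 ± 0.19 (95% interval -0.88 to -0.04, limma, adjusted p = 0.648) did not pass. Without wildtype replicate 1 it was -0.72 with an adjusted p of 0.0196, and in the other 5 fits that left out an array the adjusted p was 0.563 or above.

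The proximal promoters of Ctla4 and Tigit are shown because these receptors shared the wildtype pattern. That of Havcr2 is shown because, alone among the listed receptor promoters, it matched TGANTCA, a loosened AP-1 and Bach-Maf core (any middle base). They come from RefSeq on GRCm38.p6, each the 250 bases before the listed transcript start, 5′ to 3′ on the gene's strand, with capitals marking a motif match: Ctla4 at chr1:60908775-60909024 (plus strand), Tigit at chr16:43664185-43664434 (minus strand) and Havcr2 at chr11:46454681-46454930 (plus strand).
Ctla4: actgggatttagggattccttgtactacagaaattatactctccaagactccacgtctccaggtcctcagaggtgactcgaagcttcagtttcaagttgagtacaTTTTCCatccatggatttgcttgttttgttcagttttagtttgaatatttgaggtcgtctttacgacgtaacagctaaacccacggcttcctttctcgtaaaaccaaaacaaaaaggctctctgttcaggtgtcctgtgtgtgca
Tigit: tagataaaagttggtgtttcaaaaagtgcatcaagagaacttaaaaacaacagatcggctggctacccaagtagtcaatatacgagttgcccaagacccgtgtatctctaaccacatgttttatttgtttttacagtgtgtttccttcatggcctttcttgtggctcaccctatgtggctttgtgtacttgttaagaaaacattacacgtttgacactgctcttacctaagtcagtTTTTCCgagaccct
Havcr2: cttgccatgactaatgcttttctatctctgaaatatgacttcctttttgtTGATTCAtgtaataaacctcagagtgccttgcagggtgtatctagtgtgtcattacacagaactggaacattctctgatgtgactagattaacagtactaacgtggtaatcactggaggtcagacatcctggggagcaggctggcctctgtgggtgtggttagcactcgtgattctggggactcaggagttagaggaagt

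Of the 10 receptors, 6 matched a promoter in the table (Ctla4, Pdcd1, Btla, Tigit, Havcr2 and Cd200). The motifs were searched on both strands in the 250 bases before the start, and none of the matches overlapped another. GGAAAA, the core bound by NFAT factors, which T cell receptor signalling activates, was found in 2 of the 6, once in Ctla4 (bases 145 to 140 before the start, as TTTTCC) and once in Tigit (bases 14 to 9). It is held by 20.4% of all 32851 promoters of that length. TGANTCA loosens the core of the element bound by AP-1 and by Bach-Maf dimers, whose middle base is C or G, to any middle base (N). It was found in Havcr2 alone, as TGATTCA (bases 200 to 194 before the start), with a middle base outside that core. The loosened pattern is held by 6.75% of all promoters, and the core itself was not counted. TGTTTAC, a forkhead core, was found in 0 of the 6, against 3.17% of all. These are matches of letters, not sites shown to be bound.

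Several regulatory T cell markers fell in the knockout, and their levels are given beside Ctla4 and Tigit because both receptors are abundant in those cells. Of 17 markers fixed in a list that holds none of the 10 receptors, 5 fell and 1 rose, with a median difference of -0.60. By sign alone, 14 lay below 0 and 3 above. The marker that rose was Izumo1r, at 0.92 (limma, adjusted p = 0.0434), and Gpr83, at 0.72, was higher without passing (adjusted p = 0.5). Foxp3, the lineage factor, was at 7.30, 8.29 and 8.33 in wildtype replicates 1 to 3 and at 5.36 to 5.69 in the knockout. Il2ra, the high-affinity chain for interleukin 2, was at 7.16, 8.43 and 8.54 against 5.80 to 6.31, and Lrrc32, a docking receptor for latent TGF-beta, was at 5.86, 6.93 and 7.05 against 4.64 to 4.88. Wildtype replicate 1 was the lowest wildtype array for Foxp3, Il2ra, Lrrc32, Ctla4 and Tigit alike, and also for Cd28, Cd200 and Cd200r1, though there it lay close to replicate 3. The list's mean level was 6.96, 7.58 and 7.59 in wildtype replicates 1 to 3 and 6.61 to 6.71 in the knockout. Icos and Pdcd1, also known from regulatory T cells, did not share this order: Icos was lowest on wildtype replicate 3, and Pdcd1 was highest on wildtype replicate 1. As each array was left out, Foxp3 kept its call in 6 of 6 fits and Il2ra only without wildtype replicate 1 (adjusted p up to 0.133), while Lrrc32 lost it without wildtype replicate 3 (0.0657) or knockout replicate 2 (0.0541). Over all probe sets or without moderation none of these 3 passed (Foxp3, 0.0743 and 0.393). Izumo1r, as each array was left out, kept its call only without wildtype replicate 2 (adjusted p up to 0.202). It passed neither over all probe sets (0.349) nor without moderation (0.616). The part of regulatory T cells in the receptor differences was not tested.

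**Figure D2:**
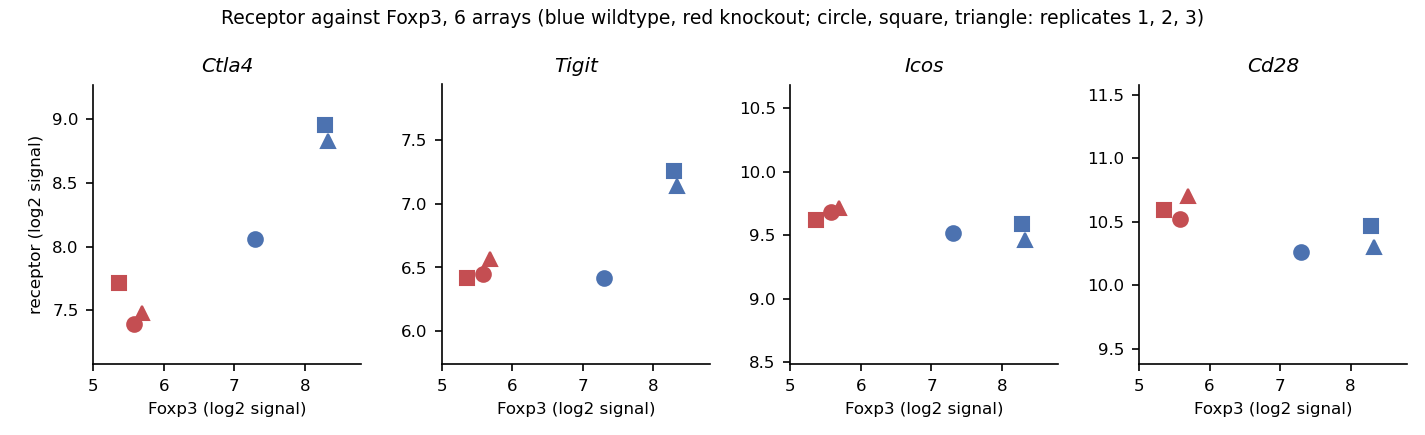
Log2 signal of Ctla4, Tigit, Icos and Cd28 (y axes, equal heights) against that of Foxp3 (x axis) on the 6 arrays, wildtype in blue and knockout in red. Ctla4 and Tigit are highest on the wildtype arrays with Foxp3 at 8.29 and 8.33 and lower on the wildtype array with Foxp3 at 7.30, whereas Icos stays between 9.46 and 9.71 throughout.

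The genes whose 6 values, centred on the gene's mean, lay nearest to those of Ctla4 were the ectonucleotidase Nt5e (root mean square distance 0.114 on the log2 scale over 6 arrays), Fgl2 (0.135) and the chemokine receptor Ccr6 (0.178). Nt5e was at 5.43, 5.99 and 6.04 in wildtype and 4.72 to 4.87 in knockout cells, and Ccr6 at 4.44, 5.42 and 5.34 against 3.52 to 4.10. In each of the 3, wildtype replicate 1 was the lowest wildtype array, as in Ctla4. They were picked for this likeness, so their own differences, -1.04, -1.08 and -1.23, are descriptions. Nt5e is also among the listed regulatory T cell markers that fell, whereas Fgl2 and Ccr6 did not pass (limma, adjusted p = 0.108 and 0.0677).

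Pdcd1, which encodes the inhibitory receptor PD-1, differed without the spread seen in Ctla4. It was at 7.17, 7.08 and 6.93 in wildtype replicates 1 to 3 and at 6.79, 6.76 and 6.58 in the knockout, with no overlap and an SD of 0.12 in both groups. The difference of -0.35 ± 0.11, 1.27-fold, had a 95% interval of -0.58 to -0.11 (limma, unadjusted p = 0.00797, adjusted p = 0.357) and did not pass over all genes. In the 6 fits that left out an array it ran from -0.41 to -0.28.

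Btla, which inhibits T cells on binding the TNF-receptor family member HVEM (Tnfrsf14), had wildtype values of 6.97, 7.28 and 6.91 and knockout values of 7.30, 7.21 and 7.38. Wildtype replicate 2 lay above knockout replicate 2, so the groups overlapped, and the difference of 0.24 (95% interval -0.02 to 0.50, limma, adjusted p = 0.771) did not pass. Lag3, a CD4-related receptor that binds MHC class II and lies next to Cd4 in gene order, was at 5.53, 5.93 and 5.15 against 5.08, 5.42 and 5.34. The groups overlapped and the wildtype SD was 0.39. Its difference of -0.26 (95% interval -0.66 to 0.14, limma, adjusted p = 0.925) moved between -0.45 and -0.06 as each array was left out.

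Havcr2, which encodes TIM-3, gave a dim signal, with wildtype values of 3.50, 3.77 and 3.27 and knockout values of 3.11, 3.25 and 3.77. All 6 values lay below 4.94, the median of all values on the arrays, and the deposited table gives no detection call that would separate signal from background. The groups overlapped, and the difference of -0.14 (95% interval -0.54 to 0.25, limma, adjusted p = 0.984) did not pass.

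In the CD200 pair the receptor rose, while the ligand was lower without passing. Cd200r1, the receptor, was at 5.19, 5.67 and 5.30 in wildtype replicates 1 to 3 and at 6.31, 6.55 and 6.52 in the knockout. The lowest knockout value lay 0.64 above the highest wildtype value. The means of 5.38 ± 0.25 and 6.46 ± 0.13 (SD, n = 3 each) differed by 1.08 ± 0.13, a 2.11-fold rise with a 95% interval of 0.78 to 1.38 (limma, adjusted p = 0.00616), at rank 38 by p among all genes. Without wildtype replicate 3 the adjusted p was 0.0564, at a difference of 1.03, and the other 5 fits that left out an array gave 0.00217 to 0.039. It was 0.129 over all probe sets and 0.416 without moderation.

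Cd200, the ligand, was at 7.29, 7.79 and 7.45 in wildtype and at 7.07, 6.95 and 7.11 in knockout cells, with no overlap. Its difference of -0.47 ± 0.13, 1.38-fold, had a 95% interval of -0.76 to -0.18 (limma, unadjusted p = 0.00504, adjusted p = 0.294) and did not pass. The gap between receptor and ligand signals within an array changed by 1.54 without overlap (exact permutation test, two-sided, p = 0.1, the smallest possible with these arrays). Each gene alone already separated the groups, in opposite directions, so this outcome was fixed and adds no support. Cd200 and Cd200r1 are 8 tested genes apart on chromosome 16, with Btla between them, 7 genes from Cd200r1, and Tigit is 16 genes from it. These 4 neighbours differed in size and direction, at -0.47, 1.08, 0.24 and -0.46.

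The paralogs of Cd200r1 beside it were dim. Cd200r4, the next tested gene on the chromosome, had wildtype values of 3.48, 3.95 and 3.67 and knockout values of 3.86, 4.31 and 4.57. Its difference of 0.55 missed the threshold (adjusted p = 0.436). Cd200r2 differed by 0.16 and Cd200r3 by 0.02. Probes of such paralogs may bind each other's cDNA, so the separate values of Cd200r1 and Cd200r4 are uncertain. The genes nearest to the pattern of Cd200r1 were Dennd2d (distance 0.0425), the unnamed transcript 4833420G17Rik (0.0884) and Izumo1r, folate receptor 4 (0.113). Izumo1r is also the regulatory T cell marker that rose. Dennd2d was at 7.78, 8.24 and 7.80 in wildtype and at 8.95 to 9.08 in knockout cells, with wildtype replicate 2 the highest wildtype array, as for Cd200r1.

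CD200R1 is known from myeloid cells as well as T cells, so myeloid markers are given beside it. Of 13 myeloid and dendritic markers, 1 rose, the lysozyme gene Lyz2, and 12 did not pass, with a median difference of 0.02. Lyz2 was at 5.68, 4.97 and 5.22 in wildtype and at 7.03, 6.82 and 6.17 in knockout replicates 1 to 3. Its highest knockout array, replicate 1, was the lowest knockout array for Cd200r1. Cd14, Csf1r and Adgre1 lay between 2.97 and 4.05 on all 6 arrays, under the median of 4.94. Other markers on the list were bright in both genotypes and overlapped between them. Cd74 lay between 7.98 and 8.90, H2-Aa between 6.99 and 8.00 and H2-Ab1 between 6.82 and 7.21. Averaged over the list, the level was 5.16, 5.11 and 5.13 on knockout arrays 1 to 3 and at most 5.10 on wildtype arrays. That average includes Lyz2, whose difference of 1.39 was the largest on the list. Of the 13 markers, 7 lay above 0 and 6 below. At an unadjusted p under 0.05 by limma, 1 was higher, Lyz2, and 2 were lower, Itgam at -0.33 and Mpeg1 at -0.31. Lyz2 lost its call without wildtype replicate 2 or 3 or knockout replicate 1 or 2 (adjusted p up to 0.153), without moderation (0.616) and over all probe sets (0.298). The part of myeloid RNA in the Cd200r1 difference was not tested.

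**Figure D3:**
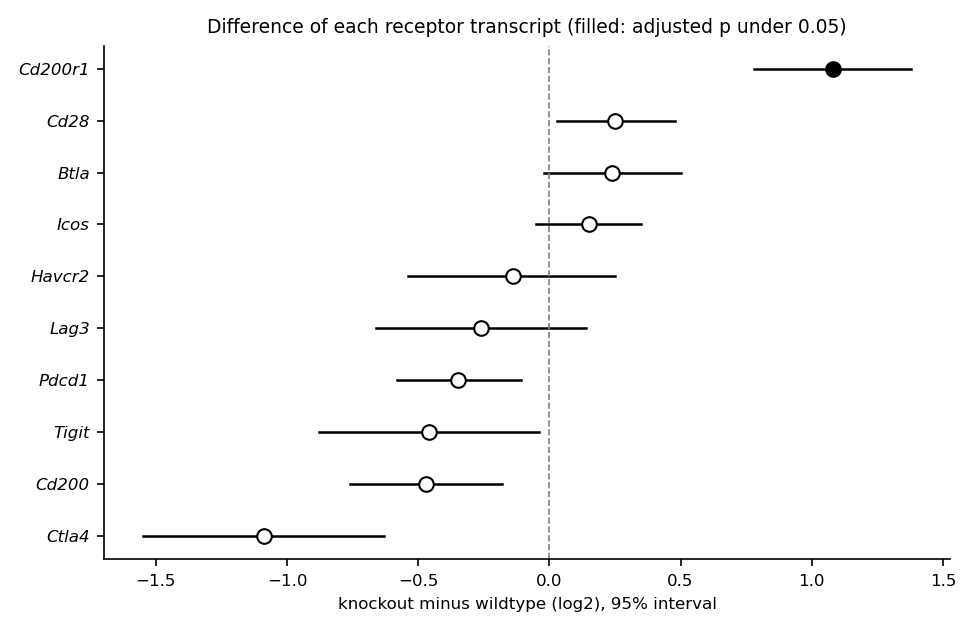
Knockout minus wildtype difference (x axis, log2 scale) of each receptor transcript, as circles with the 95% interval of the limma fit as lines, filled where the adjusted p was under 0.05. Cd200r1 at 1.08 is the filled circle, and Ctla4 at -1.09 is open, with an interval of -1.55 to -0.63.

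Ligands of these receptors did not pass the test: of 14 listed and measured, limma called 0 over all genes and 2 were under an unadjusted p of 0.05, with a median difference of 0.04. Those with the smallest p were Tnfrsf14, the ligand of BTLA, at 0.29 (adjusted p = 0.475), and Pdcd1lg2, which encodes the PD-1 ligand PD-L2, at 0.36 (adjusted p = 0.544). Both were on the higher side in the knockout. The CD28 and CTLA-4 ligands Cd80 and Cd86 were at 3.74 to 4.63 and 4.77 to 5.57 over all arrays and overlapped between the genotypes.

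Among related receptors outside the 10, 0 of 13 measured passed by limma and 5 had an unadjusted p under 0.05, with a median difference of 0.06. Lair1, an inhibitory receptor for collagen, had wildtype values of 5.25, 5.39 and 5.42 and knockout values of 5.90, 5.81 and 5.82. Its difference of 0.49 (adjusted p = 0.0631) did not pass, while without dim genes the adjusted p was 0.0306. Cd160, which shares the ligand HVEM with BTLA, differed by -0.44 (adjusted p = 0.398). Cd226 and Cd96, which share PVR with TIGIT, differed by -0.10 and -0.01.

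Of 22 measured transcripts on a list of signalling proteins, 1 rose, Trat1, and 0 fell by limma, with a median difference of 0.03 and 2 at an unadjusted p under 0.05. Trat1 encodes TRIM, a transmembrane adaptor of the T cell receptor complex. It was at 7.51, 7.63 and 7.44 in wildtype and at 8.41, 8.32 and 8.29 in knockout cells, with no overlap. The difference of 0.81 ± 0.10, 1.76-fold, passed (limma, adjusted p = 0.00461), though over all probe sets the adjusted p was 0.0551 and without moderation 0.206. Trat1 lies 24 tested genes from Cd200r1 on chromosome 16. The phosphatases Ptpn6 and Ptpn11, which inhibitory tails recruit, differed by 0.14 and -0.09, and Pik3r1 and Pik3cd, subunits of the kinase that CD28 and ICOS engage, by -0.21 and 0.12; none of the 4 passed.

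**Figure D4:**
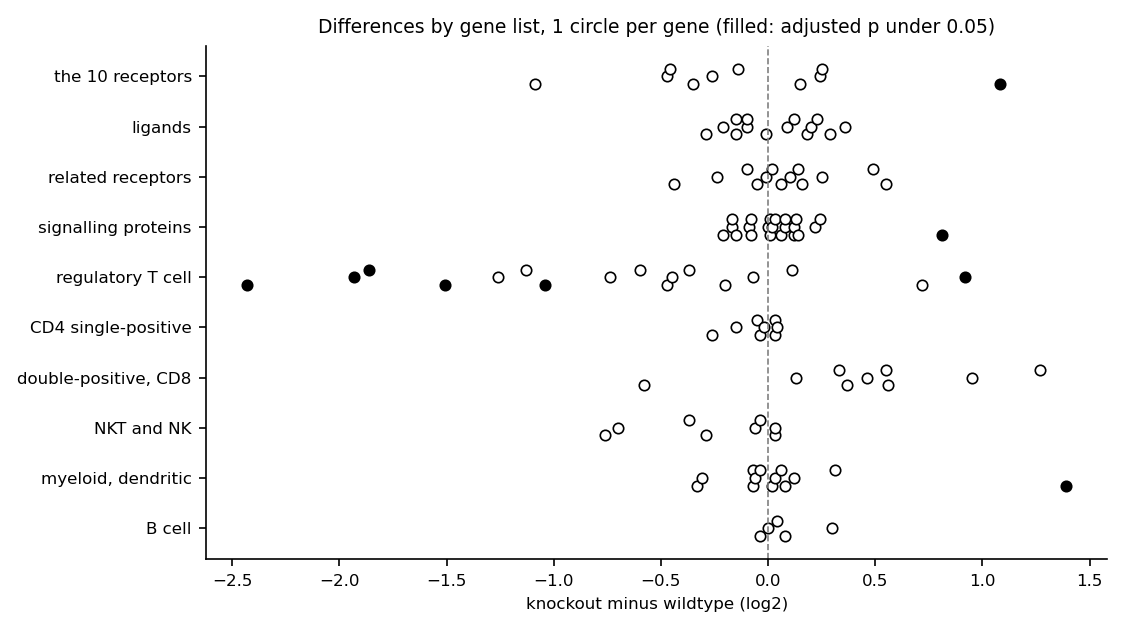
Knockout minus wildtype difference (x axis, log2 scale) of every measured gene of the 10 receptors and of 9 other lists (rows), 1 circle per gene, filled where the adjusted p was under 0.05. The ligands lie between -0.29 and 0.36, the signalling proteins between -0.21 and 0.81, and the regulatory T cell markers between -2.43 and 0.92.

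Other cells could also be present after the sort, and their markers are given here. Of 9 measured double-positive and CD8 markers, 0 passed by limma, with a median difference of 0.46. Most leaned upward: 8 lay above 0 and only Cd24a below. An unadjusted p under 0.05 was reached by 5, of which 4 were higher and 1 lower. Themis at 0.55 and Cd24a at -0.58 had the smallest p. The largest differences were those of Rag1, at 1.27 with overlapping groups, and Arpp21, at 0.95 without overlap. The list's mean was highest on knockout replicate 3, at 8.10 against 6.91 to 7.54 on the other arrays. Cd28, Icos, Btla, Tigit, Havcr2 and Cd200 were also at their highest knockout value on that array. Among knockout arrays, Ctla4, Lag3 and Cd200r1 were highest on replicate 2 and Pdcd1 on replicate 1. Of 8 natural killer T and natural killer markers, 0 passed by limma (3 unadjusted; median -0.17), with Il2rb at -0.76 and Eomes at -0.70. Of 5 measured B cell markers, 0 passed by limma and 0 had an unadjusted p under 0.05 (median 0.04), with Cd79a at 0.30 and Cd79b at 0.08. The part of these cells in the receptor differences was not tested.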

How the data were processed

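Values are those deposited by the authors, on a log2 scale, 1 per probe set and array. The submitters' processing notes name RMA and Partek, without versions. The scale was read from the values, and no source used here gives the genome build. RMA makes the arrays' distributions alike, which hides any shift common to every gene. Precision is limited by the number of arrays, 3 per group.

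Symbols are those of the platform annotation and may be outdated: 21789 of 35556 probe sets had 1 symbol, 1621 several and 12146 none listed. The highest-mean probe set stood for each gene, 19938 in all, of which 19855 matched a RefSeq table (GRCm38.p6) used for names and gene order. Knockout and wildtype were compared with limma 3.58.1 in R 4.3.3 (lmFit and eBayes, two-sided, Benjamini-Hochberg over all genes, threshold 0.05), tested on simulated data. Of 115 genes in 9 further lists, 109 were measured. The members and lists were chosen with earlier results of these data known. Named are all 10 receptors, Bach2 and Ptprc, up to 3 passing genes of each list with the largest differences or else the 2 with the smallest p, and the 3 genes nearest in pattern to the 2 most different receptors. Other genes were named after their values were seen. The design text gives the samples as separate mice, and no block was used in the main fit. Same-numbered arrays did not deviate together in every pair, but 3 arrays per group cannot decide whether any shared a host. Alternatives were no moderation, other priors, testing only genes with a mean above 4.94, other normalizations, array weights, averaged or all probe sets, a replicate block and leaving out each array. Figures were drawn with matplotlib 3.10.9.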

Additional observations from a re-analysis of the deposited data

How the results depend on the processing

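All 10 receptors kept the sign of their difference under every alternative in which they were tested. The count of receptors that rose was 0, in place of 1, without moderation, where 1 gene was called higher and 0 lower in all. It was also 0 over all probe sets, where limma called 29 of 35556 probe sets higher and 8 lower. At an unadjusted p under 0.05, there were 6 receptors in either direction without moderation, where 572 of 19938 genes were higher and 708 lower. Over all probe sets there were 5 receptors in either direction, and the matching count of all probe sets was not taken. The count of receptors that fell was 1, in place of 0, with a prior that follows expression level (78 genes lower in all), and the receptor was Ctla4. Ctla4 was also the 1 that fell without dim genes (56 of the 10614 genes tested) and after median subtraction (50 genes). The same held after a second quantile normalization (45 genes) and with array weights (64 genes). With 1 array left out at a time there were 0 to 1 receptors higher, 0 to 2 lower, and over all genes 29 to 82 higher and 18 to 66 lower. The fewest were without wildtype replicate 3, and the 2 lower receptors, Ctla4 and Tigit, without wildtype replicate 1. Fewer residual degrees of freedom come with each array left out, and the causes of the other changes were not tested.

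With the replicate number as a block, 1 receptor was lower (Ctla4), 1 higher, and 79 genes were higher and 55 lower in all. The deviations of same-numbered arrays correlated at 0.21, 0.11 and -0.07. The numbers were not taken as pairs, but so few arrays cannot decide whether they were. Of the other named genes, the difference of Ptprc ran from -0.01 (without wildtype replicate 1) to 0.05 as each array was left out, and that of Cd79b from -0.07 (without wildtype replicate 2) to 0.19, with -0.00 without knockout replicate 3 and -0.01 with array weights. Neither had passed. The deposited table gives no signal over background, so its limit for dim genes such as Havcr2 is unknown.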
